A study of Mus musculus with 57 samples.

Results

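The MAP kinase phosphatases examined here are 6 dual-specificity phosphatase (Dusp) genes, Dusp1, Dusp3, Dusp4, Dusp5, Dusp6 and Dusp14, followed across the day in mouse visual cortex with and without light. They were taken by name from the 24394 named genes of the deposited expression table, and all 6 were found in it. Of these, 5 reached a mean value of 10 and were among the 10526 genes tested, while Dusp5 did not. Transcripts were measured by MARS-Seq, which sequences tags next to the 3′ end of polyadenylated RNA, in 57 libraries of total RNA.

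All mice were wild type and lived in a cycle of 12 h light and 12 h dark. In the light arm the collection day had its usual light, and tissue was taken at 7 Zeitgeber times (ZT, counted in hours from when the lights usually come on), which were ZT1, ZT3 and ZT7.5, then ZT11.5 shortly before the usual lights-off, and ZT13, ZT15 and ZT18 after it. Each light group had 4 libraries, but ZT18 had 3. In the dark arm the lights stayed off on the collection day, and the same times were sampled, with 4 libraries in each group but 3 at ZT1 and at ZT13. ZT0, the usual moment of lights-on, exists only as a dark group, of 4 libraries. The sources used here do not give strain, sex or age. Samples are labelled as biological replicates, with no word on whether each is its own animal, and the p-values below speak only to the spread among these samples. In such bulk tissue, fewer cells of a type and less RNA per cell cannot be told apart.

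MAP kinases relay signals from synapses, growth factor receptors and stress to the nucleus and are switched on by phosphorylation of a threonine and a tyrosine. Dual-specificity phosphatases remove both phosphates. Several of these phosphatase genes are themselves transcribed in response to the kinases that their proteins switch off, which makes a feedback loop, and Dusp1 is well known as an immediate-early gene of stimulated neurons. The members differ in place and target. Dusp1 (MKP-1), Dusp4 (MKP-2) and Dusp5 encode inducible nuclear phosphatases with a kinase-binding domain, Dusp6 (MKP-3) encodes a cytoplasmic one selective for ERK, and Dusp3 (VHR) and Dusp14 (MKP6) encode small atypical phosphatases that lack this domain.

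All members are protein-coding and lie apart in the genome except for the chromosome they share in Dusp3 and Dusp14. In RefSeq's annotation of GRCm38, Dusp1 spans chr17:26505591-26508472 on the minus strand, Dusp6 chr10:99263231-99267489 on the plus strand and Dusp14 chr11:84048033-84069256 on the minus strand. Dusp3 lies at chr11:101971141-101987013 on the minus strand, Dusp4 at chr8:34807610-34819894 on the plus strand and Dusp5 at chr19:53529145-53541809 on the plus strand. Dusp3 overlaps annotated genes on the other strand (Gm20659 and Cfap97d1), and so does Dusp5 (AC137853.2). Whether counting used the strand is not stated in the sources, so reads of these genes and their partners cannot be told apart. The 250 bases before an annotated start are shown for the 3 members that passed the test of light against dark at a single time or changed across the light day, from RefSeq's promoter table (GRCm38.p6), written 5′ to 3′ on the gene's own strand with motif matches in capitals. The windows are chr17:26508473-26508722 for Dusp1, chr10:99262981-99263230 for Dusp6 and chr11:84068358-84068607 for Dusp14.
Dusp1: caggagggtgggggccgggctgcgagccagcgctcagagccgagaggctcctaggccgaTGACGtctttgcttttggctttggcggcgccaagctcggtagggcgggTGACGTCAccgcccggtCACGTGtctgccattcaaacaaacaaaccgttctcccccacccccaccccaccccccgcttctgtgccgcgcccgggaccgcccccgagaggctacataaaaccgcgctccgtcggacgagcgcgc
Dusp6: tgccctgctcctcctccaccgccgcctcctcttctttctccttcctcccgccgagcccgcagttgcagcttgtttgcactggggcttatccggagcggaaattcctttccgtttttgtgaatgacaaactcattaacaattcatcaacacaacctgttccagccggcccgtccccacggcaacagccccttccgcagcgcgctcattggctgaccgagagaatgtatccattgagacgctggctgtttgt
Dusp14: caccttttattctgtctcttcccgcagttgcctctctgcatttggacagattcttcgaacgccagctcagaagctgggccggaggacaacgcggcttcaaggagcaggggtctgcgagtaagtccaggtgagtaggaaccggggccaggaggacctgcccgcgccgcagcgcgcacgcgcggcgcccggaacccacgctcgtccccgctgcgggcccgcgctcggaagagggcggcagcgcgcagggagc
The motifs searched, on both strands, were the cAMP response element TGACGTCA and its shorter form TGACG, the AP-1 site TGANTCA, the EGR site GCGNGGGCG, the E-box CACGTG and the CArG box. The full cAMP response element, whose first base lies 143 bases before the start of Dusp1, is found in 1.55% of the 32851 windows of this length in the table. TGACG, which overlaps it, occurs in 17.8% of windows and stands once more in the Dusp1 window, 191 bases before the start. The Dusp1 window also holds the E-box, found in 6.02% of windows. The windows of Dusp6, Dusp14 and Dusp3 hold none of these letters. Those of Dusp14 and Dusp3 lie inside the annotated gene, before an inner start, so the bases before the outermost start were not searched. The Dusp5 window holds CArG boxes, CCATATTTGG and CCTTATATGG, a motif found in 1.47% of windows, and TGACG on its minus strand. The AP-1 and EGR letters, in 6.75% and 4.70% of all windows, are in none of the 5 windows. A match of letters describes the sequence and does not show that a factor binds there. Dusp4 has no window in the table.

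The libraries held 1.64 to 4.31 M (mega) recovered reads, with a median of 2.76 M, and 7 held under 2 M. The deposited values are read counts divided by 1 factor per library, called normalised counts below. They are not scaled to gene length, so levels are compared between groups and not between genes. Markers of excitatory cortical neurons, interneurons and glia were detected in every library. Choroid plexus markers (Ttr, Kl and Folr1) summed to between 60.6 and 17390 in light libraries and between 69.3 and 20790 in dark libraries, and with log2 Ttr as a term no call of a member in light against dark was gained or lost. With log2 Malat1 as a term Dusp6 and Dusp14 also passed at ZT1, and the day average of Dusp3 did not pass (0.15, adjusted p 0.0528) when Prkcd and Tnnt1, which mark thalamus, entered as a term. Within an arm, libraries numbered 1 and 2 also stood apart from those numbered 3 and 4. For example, replicates 3 and 4 had less of the nuclear RNA Malat1 in 7 of 7 light groups and more of it in 7 of 8 dark groups. Values by replicate number are therefore given beside the results they touch.

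Dusp1, Dusp6, Dusp14 and Dusp3 were higher in light when the differences at ZT1, ZT3, ZT7.5 and ZT11.5 were averaged. These 4 of the 5 tested members passed, all higher in light, against 0.779% of all genes tested. The members were chosen with earlier results of these data known, so their shares here and below are not independent evidence. The median of the 5 differences was 0.38 on the log2 scale, beside -0.00 over all genes tested. Dusp6 differed by 0.66 ± 0.11 (SE) with an adjusted p of 4.4e-05, Dusp1 by 0.74 ± 0.13 with 0.0003, Dusp14 by 0.31 ± 0.05 with 0.000159 and Dusp3 by 0.16 ± 0.04 with 0.0303. Dusp4 differed by 0.38 ± 0.18 and did not pass (adjusted p 0.402). These and all later adjusted p-values come from limma on log2(normalised count + 1), two-sided and adjusted by Benjamini and Hochberg over all genes tested, with 0.05 as the threshold. Over ZT13, ZT15 and ZT18, after the usual lights-off, none of the 5 passed, and the differences lay between -0.13 (Dusp4) and 0.17 (Dusp6), with 0.0285% of all genes passing. The day difference minus the night difference passed for none of the 5 either, against 0.114% of all genes. It was 0.77 ± 0.20 for Dusp1 (adjusted p 0.133), so a day effect larger than the night effect was not shown.

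**Figure D1:**
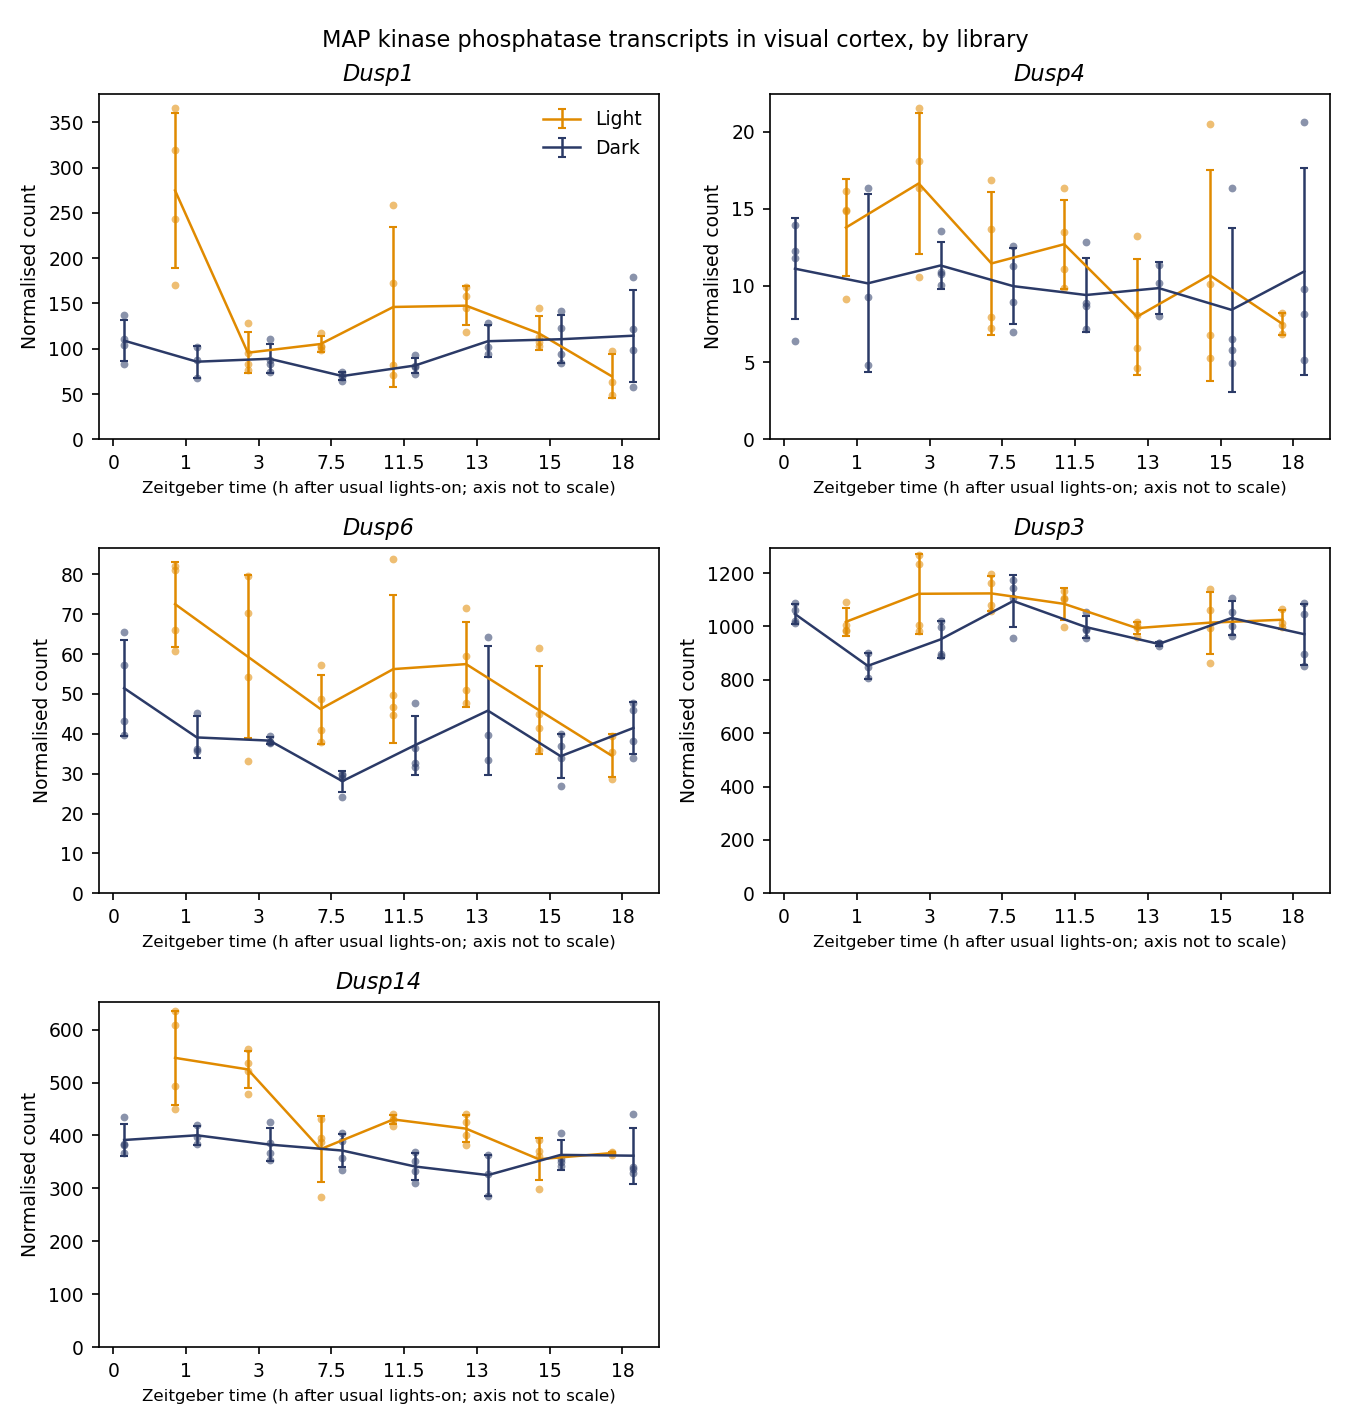
Normalised counts (vertical axes, from 0) of the 5 members tested against Zeitgeber time in hours (horizontal axes, not to scale), with 1 point per library, lines through group means and bars of 1 SD for light (orange) and dark (blue). Dusp1 stands highest in light at ZT1, with 171 to 366 against 67.2 to 102 in dark, while Dusp3 varies little between groups.

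Dusp1, whose protein acts on p38, JNK and ERK in the nucleus, had the largest single difference among the members, 1 h after lights-on. At ZT1 it measured 366, 319, 244 and 171 in the 4 light libraries, against 67.2, 102 and 87.5 in the 3 dark libraries. The groups did not overlap, and the lowest light library lay above the highest dark one. The means were 275 ± 85.7 in light and 85.7 ± 17.7 in dark (SD, n = 4 and 3), a 3.2-fold difference, and the limma difference was 1.63 ± 0.28 (log2, SE) with an adjusted p of 0.000249. Dusp1 was the only member to pass at ZT1, where 0.257% of all genes passed, all of them higher in light. With replicates 3 and 4 alone, which leave 1 dark library at ZT1, the difference was 1.21 with an adjusted p of 0.0569.

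At ZT3 no such difference was detected. Light libraries held 76.3, 83.2, 128 and 95.1, against 74.1, 87.6, 82.8 and 111 in dark libraries, with overlapping ranges and a difference of 0.09 ± 0.26 (adjusted p 0.972). Within the light arm, Dusp1 fell by 1.48 ± 0.26 (log2, SE) at ZT3 relative to ZT1 (adjusted p 0.000741), among 0.133% of genes that fell at this step. Relative to the dark ZT0 group, whose 4 libraries held 138, 83.5, 104 and 111, Dusp1 at light ZT1 was higher by 1.29 ± 0.26 (adjusted p 0.00408). That step uses the same light ZT1 libraries as the comparison with dark ZT1, and without the first of them it was 1.14 with an adjusted p of 0.0538. In the dark arm, Dusp1 at ZT1 was not distinguishable from ZT0 (-0.34 ± 0.28, adjusted p 0.784). The difference between the light effects at ZT1 and ZT3 was 1.54 ± 0.38, which did not pass when adjusted over all genes (adjusted p 0.21), among which 0.019% passed.

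Later in the day Dusp1 sat higher in light, but no single time passed. At ZT7.5 the light libraries held 98.7, 103, 101.4 and 117, against 74.7, 69.1, 70.9 and 64.7 in dark libraries. These groups did not overlap, yet the difference of 0.58 ± 0.26 had an adjusted p of 0.819, and no gene at all passed at this time by limma, edgeR or DESeq2, with 613 genes at an unadjusted p under 0.05. At ZT11.5, shortly before the usual lights-off, light libraries fell into 2 pairs, 82.3 and 70.5 in replicates 1 and 2 and 259 and 173 in replicates 3 and 4, against 79.8, 72.2, 81.3 and 92.8 in dark. Replicates 1 and 2 lay within or just below the dark range, and replicates 3 and 4 lay above it. The pooled difference was 0.64 ± 0.26 (adjusted p 0.464), and none of the 5 members passed at this time, against 0.152% of all genes. Within replicates the Dusp1 difference was 0.01 in 1 and 2 and 1.27 in 3 and 4 (adjusted p 0.00227 for the second). In those fits 5 and 230 of the 10526 genes passed, respectively. The activity-regulated transcripts Arc, Fos and Nr4a1 split the same libraries, and Egr1 did not. In light replicates 1 to 4 at ZT11.5 Arc held 460, 226, 1068 and 1287 and Fos 77.6, 58.9, 165 and 171. Nr4a1 held 373, 339, 806 and 589 there. Egr1 held 1286, 944, 1365 and 1199, with replicate 1 above replicate 4. At light ZT7.5 Egr1 did split, with 684, 548, 1083 and 985. The part of the replicate number in these values was not tested further, because the labels do not say what it marks.

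After the usual lights-off no member passed at any time, against 0.038% of all genes at ZT13 and 0% at ZT15 and ZT18. At ZT13 the light libraries held 145, 168, 158 and 119, against 94.4, 102 and 129 in dark libraries, with 3 of 4 light libraries above the highest dark one (0.44 ± 0.28, adjusted p 0.704). At ZT18 the order was turned, with 49.4, 62.8 and 97.0 in light, against 122, 57.6, 98.9 and 179 in dark, and a difference of -0.65 ± 0.28 (adjusted p 0.459). Taken over the 15 groups, light ZT1 was the highest mean and the only one whose range lay clear of the group next below it by mean. It did not lie clear of all groups. Light ZT11.5 reached 259 and dark ZT18 reached 179, both above the lowest light ZT1 library (171). Light ZT13 came next with a mean of 148, and the lowest means were dark ZT7.5 (69.9) and light ZT18 (69.7).

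Change over time was tested with moderated F tests. Over the 7 light times Dusp1 (adjusted p 6.15e-05), Dusp14 (1.86e-05) and Dusp6 (0.0361) changed, 3 of 5 against 3.81% of all genes. Over the 8 dark times none of the 5 passed, against 6.52% of all genes, with 2 of them at an unadjusted p under 0.05 and none by edgeR. That the light-dark difference itself varied with time was called for Dusp1 (adjusted p 0.0306), where 0.181% of all genes passed. This call was lost without the libraries under 2 M reads (adjusted p 0.339) and when any 1 of 8 libraries was left out, the highest adjusted p being 0.142 without dark ZT1 replicate 1. The 8 libraries were light ZT1 replicates 1 and 2, light ZT18 replicates 1 and 2, dark ZT1 replicates 1 and 3 and dark ZT18 replicates 1 and 4. Between neighbouring dark times no step of any member passed, while 0.057% of all genes passed between ZT0 and ZT1, 0% between ZT1 and ZT3, 0.2% between ZT3 and ZT7.5, 0.285% between ZT7.5 and ZT11.5, 0.0095% between ZT11.5 and ZT13, 0% between ZT13 and ZT15 and 0.095% between ZT15 and ZT18. In light, no member passed at the steps after ZT7.5, where 0% of all genes passed between ZT7.5 and ZT11.5, 0.257% between ZT11.5 and ZT13 and 0% at both later steps.

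**Figure D2:**
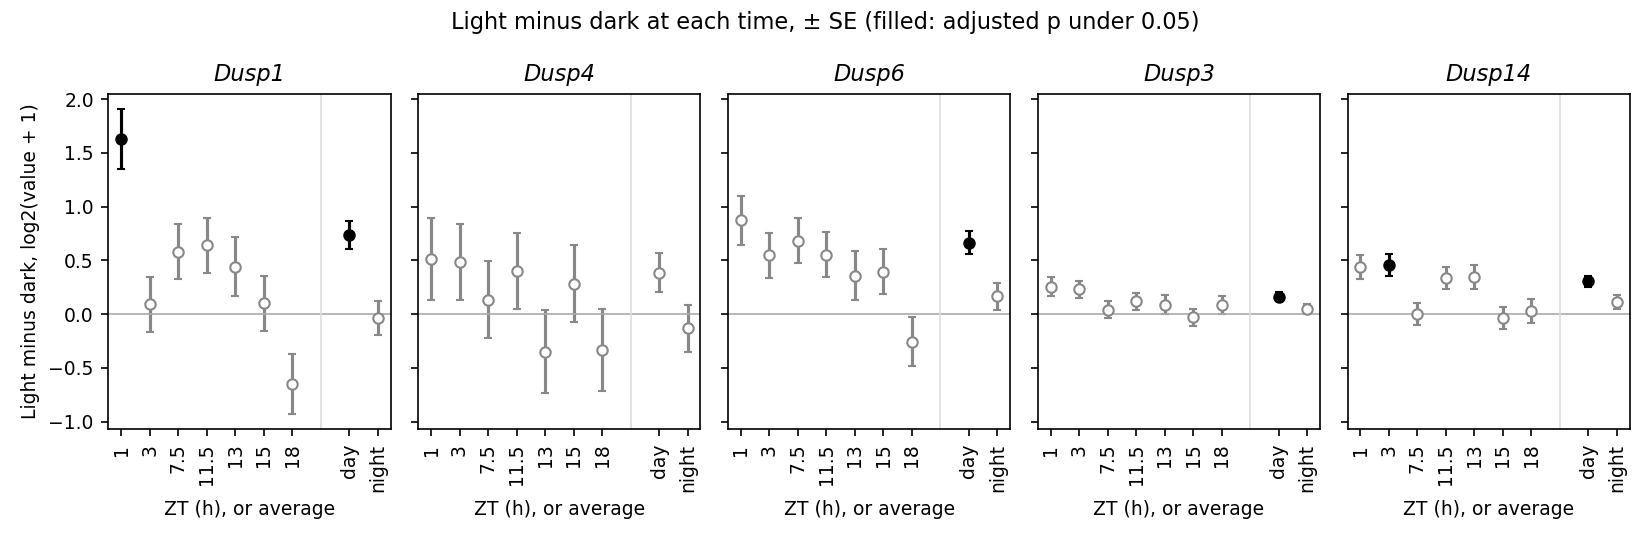
Light minus dark difference in log2(normalised count + 1) (vertical axis) at each Zeitgeber time in hours, and averaged over the day times and the night times (horizontal axes), for each member, with bars of 1 SE. Filled points passed an adjusted p of 0.05, which were Dusp1 at ZT1 (1.63), Dusp14 at ZT3 (0.46) and the day averages of Dusp1, Dusp6, Dusp3 and Dusp14.

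Dusp6, the cytoplasmic ERK phosphatase, showed a smaller difference that was spread over the day. Its mean was higher in light at 6 of 7 times, a count shared by Dusp1, Dusp3 and Dusp14. For Dusp6 no single time passed. At ZT1 it measured 81.1, 82.0, 60.9 and 66.1 in light libraries, against 36.3, 45.2 and 35.8 in dark libraries. All light libraries were above all dark ones, and the difference was 0.87 ± 0.23 (adjusted p 0.0869; 0.0429 by DESeq2 on recovered reads). At ZT7.5 light libraries held 40.8, 38.0, 57.2 and 48.8, against 24.3, 29.6, 29.8 and 28.9 in dark libraries. Again the groups did not overlap (0.68 ± 0.21, adjusted p 0.726).

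At ZT3 Dusp6 held 33.1, 70.3, 54.2 and 79.7 in light libraries, against 38.0, 38.0, 39.5 and 37.7 in dark libraries. The dark values were close together, and the light values reached from below the lowest dark one to far above the highest (0.55 ± 0.21, adjusted p 0.545). At ZT11.5 light libraries held 46.7, 44.6, 83.7 and 49.8, against 31.7, 32.6, 47.8 and 36.5 in dark (0.55 ± 0.21, adjusted p 0.415). Replicate 3 stood above the other light libraries there, as it did for Dusp1. The day average of Dusp6 passed in each of the 14 other settings that gave it a value and with each of the 31 day libraries left out in turn, with differences between 0.59 and 0.75. Its change over the light times was less firm, with adjusted p-values between 0.0073 and 0.109 as single light libraries were left out. The lowest dark group of Dusp6 was ZT7.5 (28.1 ± 2.61) and the highest dark ZT0 (51.4 ± 12.1), against 72.5 ± 10.7 in light ZT1 and 34.5 ± 5.45 in light ZT18 as the extremes of the light arm (SD, n = 4 each, 3 at light ZT18).

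Dusp14, an atypical phosphatase, differed by about the same amount at ZT1 (0.43) and ZT3 (0.46), and only the second difference passed by limma. The difference between these effects was -0.02 ± 0.15 (log2, SE, adjusted p 0.9985). At ZT3 it measured 537, 563, 478 and 522 in light libraries, against 425, 366, 386 and 354 in dark libraries. The groups did not overlap, and the difference of 0.46 ± 0.10 had an adjusted p of 0.0426, the only member to pass at ZT3, where 0.124% of all genes passed. That call stands close to the threshold. It was lost with any 1 of 7 of the 8 libraries left out (dark ZT3 replicate 1 the exception), with adjusted p-values up to 0.189 and differences between 0.42 and 0.51, and it was lost in the 5 other settings given in the closing section.

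At ZT1 Dusp14 held 449, 494, 634 and 608 in light libraries, against 396, 420.2 and 385 in dark libraries. All light libraries lay above the dark ones, with replicates 3 and 4 higher than 1 and 2 (0.43 ± 0.11, adjusted p 0.0793; 0.0393 by edgeR and 0.0126 by DESeq2 on recovered reads). Against dark ZT0 (434, 381, 384 and 367) light ZT1 was higher by 0.47 ± 0.10 (adjusted p 0.013), and 0.295% of all genes were higher at this step. With replicates 1 and 2 alone this step was 0.21 (adjusted p 0.991), and leaving out light ZT1 replicate 3 gave an adjusted p of 0.183. From ZT3 to ZT7.5 in light, Dusp14 fell by 0.50 ± 0.10 (adjusted p 0.00781), among 0.323% of genes that fell. Light ZT7.5 replicate 4 was the lowest Dusp14 library of all, and without it the step was -0.38 (adjusted p 0.0874).

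At ZT7.5 the arms had the same Dusp14 level within their error, with 387, 395, 430.4 and 285 in light, against 389, 405, 335 and 357 in dark (-0.00 ± 0.10, adjusted p 0.997). At ZT11.5 the groups were apart once more, with 419, 431, 429.6 and 442 in light, against 369, 352, 311 and 334 in dark. The difference of 0.34 ± 0.10 did not pass (adjusted p 0.233). At ZT13, 1 h after the usual lights-off, light libraries held 383, 426, 441 and 402, against 327, 363 and 286 in dark, all above them but again without passing (0.35 ± 0.11, adjusted p 0.349). At ZT15 and ZT18 the ranges overlapped. In the dark arm replicates 3 and 4 averaged lower than 1 and 2 in 8 of 8 groups (mean -0.16, log2). With a term for replicates 3 and 4 in each arm the day average of Dusp14 was 0.23 with an adjusted p of 0.0829. That fit reads the difference at replicates 1 and 2. With replicates 1 and 2 alone the day average was 0.22 with an adjusted p of 0.139, so these are not separate checks. Over the 15 other settings the day average of Dusp14 lay between 0.22 and 0.39.

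**Figure D3:**
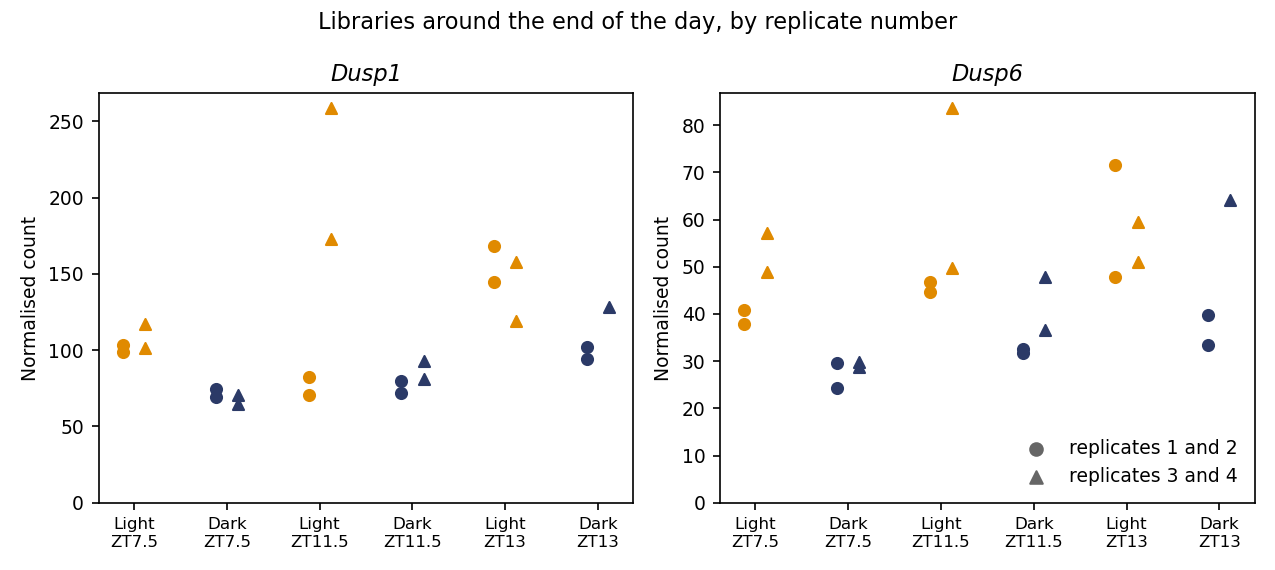
Normalised counts (vertical axes, from 0) of Dusp1 and Dusp6 in single libraries at ZT7.5, ZT11.5 and ZT13, light (orange) left of dark (blue), with circles for replicates 1 and 2 and triangles for replicates 3 and 4. Dusp1 at light ZT11.5 splits by replicate number, with 82.3 and 70.5 against 259 and 173.

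Dusp3 was the steadiest member, with single libraries between 806.5 and 1269. Its protein, VHR, is a small phosphatase that acts on ERK and JNK. At ZT1 it measured 1006, 983, 1093 and 987 in light libraries, against 849, 806.5 and 902 in dark libraries. The ranges were apart, but the difference of 0.26 ± 0.09 did not pass (adjusted p 0.586). The dark ZT1 group had the lowest mean of the 15 groups (852 ± 47.7, n = 3), against 1047 ± 36.1 (SD, n = 4) at dark ZT0, and that dark step of -0.30 ± 0.09 did not pass either (adjusted p 0.165).

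At ZT3 Dusp3 held 982.5, 1004, 1269 and 1234 in light libraries, against 997, 895, 1022 and 891 in dark libraries (0.23 ± 0.08, adjusted p 0.465). Light replicates 3 and 4 averaged above replicates 1 and 2 in 7 of 7 groups, by 0.14 on the log2 scale. With replicates 1 and 2 alone the day average of Dusp3 was 0.08 (adjusted p 0.659). A term for replicates 3 and 4 in each arm, which again reads the difference at replicates 1 and 2, gave 0.07 (adjusted p 0.792). Over the 15 other settings the day average of Dusp3 lay between 0.07 and 0.24. Its call was also lost without any 1 of 12 of the 31 day libraries, with adjusted p-values up to 0.081. Over the dark times Dusp3 had an adjusted p of 0.0634, and it passed in 5 other settings (adjusted p 0.00841 to 0.0478).

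Dusp4, another inducible nuclear phosphatase, rested on 5 to 28 reads per library, with a mean value of 10.9, just over the filter. Its largest group mean was light ZT3, where libraries held 21.6, 10.6, 16.4 and 18.1, against 13.6, 10.9, 10.1 and 10.8 in dark ZT3. The difference was 0.49 ± 0.35 (adjusted p 0.855), and the ranges of light and dark overlapped at all 7 times. At ZT1 light libraries held 14.9, 9.11, 16.2 and 15.0, against 16.3, 4.84 and 9.28 in dark libraries (0.52 ± 0.38). With standard errors of 0.35 to 0.38, differences of this size could not be told from 0.

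Dusp5, a nuclear phosphatase selective for ERK, was barely captured. In all it had 8 reads, 5 in 4 light libraries and 3 in 3 dark libraries, and 50 of the 57 libraries had none. At these depths 0 reads in a library allows up to 0.784 to 1.83 reads in 1 M, as counting error alone. No difference between groups was tested, and none of the 4 light ZT1 libraries had a read.

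Counting whole groups, the lowest light library exceeded the highest dark one for 4 of the 5 tested members at ZT1, where 3.09% of all genes did, and for 1 at ZT3 (2.56%), 2 at ZT7.5 (2.3%), 1 at ZT11.5 (3.42%) and 2 at ZT13 (3.51%). The 4 at ZT1 were Dusp1, Dusp3, Dusp6 and Dusp14. At ZT15 and ZT18 there was none, where 0.912% and 4.37% of genes did so.

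Over the 15 group means, Dusp1 and Dusp6 ran alike (Pearson's r 0.83), as did Dusp6 and Dusp14 (0.71), while Dusp1 and Dusp3 did not (0.04). These are descriptions over groups that share arms and times. Within groups, the deviations of the 57 libraries from their group means gave no relation that passed after adjustment over the 10 pairs of members. The pair with the largest Pearson's r, Dusp1 and Dusp6, had r 0.32 and rho 0.27 (permutation p 0.0484 and 0.0837, adjusted 0.242 and 0.334). It was 0.29 without the 2 libraries farthest from the median of Dusp1, 0.20 in replicates 1 and 2 and 0.30 in replicates 3 and 4. Dusp6 and Dusp14 had r -0.29 and, of all pairs, the rho farthest from 0, -0.32 (permutation p 0.0416 and 0.0302, adjusted 0.242 and 0.302), and -0.32 without the 2 farthest, -0.20 in replicates 1 and 2 and -0.27 in 3 and 4.

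The genes most like each member in group means were searched among those with a mean of at least 50. For Dusp1 they were Junb (r 0.94), Ier2 (0.94) and Nr4a1 (0.93), which are immediate-early genes. For Dusp6 they were Nr4a1 (0.89), Junb (0.83) and Fos (0.83). For Dusp14 they were Egr1 (0.91), Egr3 (0.90) and R3hdm1 (0.89), the first pair being zinc-finger transcription factors. Dusp3 was most like Gdpd5 (0.91), Map4 (0.85) and Car7 (0.85), and Dusp4 most like Kti12 (0.82), Rheb (0.81) and Chgb (0.81). Egr1 ran from 2295 to 2522 in light ZT1, 1533 to 2162 in light ZT3 and 548 to 1083 in light ZT7.5, with light ZT3 above light ZT7.5, as for Dusp14. Egr1 in light ZT1 also lay above light ZT3, while for Dusp14 these ranges overlapped (449 to 634 and 478 to 563). Nr4a1 ran from 1150 to 1696 in light ZT1, 435 to 541 in light ZT3 and 238 to 495 in light ZT7.5, with light ZT1 above both, as for Dusp1.

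The rest of the pathway was described from 7 lists of genes. Among other kinase-binding MAP kinase phosphatases, none of the 5 tested passed at ZT1, in the day average or at any other time. Dusp7 held 289 ± 30.6 in light ZT1, against 255 ± 19.9 in dark ZT1, and Dusp8 held 628 ± 71.3 in light ZT1, against 591 ± 109 in dark ZT1 (SD, n = 4 and 3). None of 9 other dual-specificity phosphatases passed. At ZT1 Dusp12 was the one with the smallest p, at 43.1 ± 9.99 in light and 29.2 ± 6.14 in dark (adjusted p 1.0). Among the members and both lists, the phosphatase genes called at a single time were thus Dusp1 and Dusp14.

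Of the MAP kinases themselves, the targets of these phosphatases, none of 11 passed at ZT1. Mapk14, which encodes p38α, held 309 ± 21.5 in light ZT1 and 246 ± 16.7 in dark ZT1 (0.33 ± 0.09, adjusted p 0.176), and it passed in the day average (0.19 ± 0.04, adjusted p 0.013), the only one of the 11. Mapk3, which encodes ERK1, held 636 ± 86.7 in light ZT1 and 785.5 ± 147 in dark ZT1 (adjusted p 0.968). None of 20 Ras, Raf and MAP kinase kinase genes and none of 8 kinases activated by ERK or p38 passed at any single time or in the day average. The Sprouty and Spred genes encode another layer of inducible inhibitors of the pathway. None of 6 passed, with Spry4 at 47.0 ± 10.6 in light ZT1 and 29.1 ± 2.57 in dark ZT1 (0.65 ± 0.21, adjusted p 0.523).

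The last list was drawn up as ERK-responsive transcripts. Many of its genes are immediate-early genes, and it also holds Elk1 and Srf. At ZT1, 11 of 20 were higher in light and none lower (Arc, Egr1, Egr2, Egr3, Egr4, Fos, Fosb, Ier2, Junb, Klf4 and Nr4a1), against 0.257% of all genes. At ZT3 there were 6 (0.124% of all genes), at ZT7.5 none (0%), at ZT11.5 there were 9 (0.152%) and at ZT13 none (0.038%). Their median difference at ZT1 was 0.99, beside 0.00 over all genes tested. Fos, a subunit of AP-1, held 489, 333, 327 and 407 in light ZT1 libraries, against 41.7 to 55.7 in dark. Egr4 held 779 ± 100.7 in light ZT1 and 190.3 ± 15.6 in dark ZT1, a difference of 2.02 ± 0.18 (adjusted p 2.02e-11). At ZT11.5, where no Dusp member passed, Egr1 differed by 1.70 ± 0.17 (adjusted p 3.18e-10) and Nr4a1 by 1.27 ± 0.20 (adjusted p 9.16e-05). Over the dark times 9 of the 20 passed, Elk1 and Srf among them, against 6.52% of all genes. This list was chosen with earlier results of these data known, so its direction is not independent evidence.

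**Figure D4:**
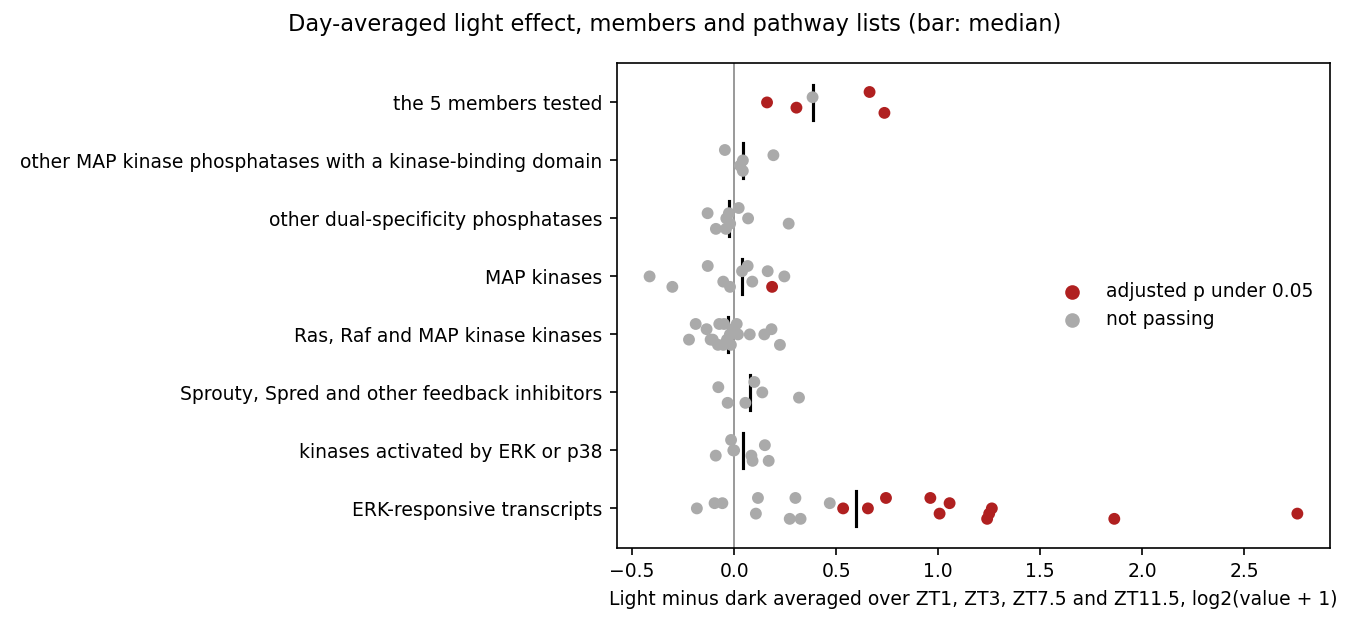
Light minus dark in log2(normalised count + 1), averaged over ZT1, ZT3, ZT7.5 and ZT11.5 (horizontal axis), for each tested gene of the members and of the 7 pathway lists (rows), with red points for an adjusted p under 0.05 and bars for list medians. Red points stand among the 5 members (4 of them), the ERK-responsive transcripts (11 of 20) and the MAP kinases (Mapk14), and in no other list.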

How the data were processed

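The 57 libraries of mouse visual cortex RNA were grouped by arm and time as labelled. The submitters' processing notes name cutadapt, STAR 2.5.2b, the mm10 build and DESeq2. Neither the annotation used, nor how molecular identifiers and strand were handled, is stated in these sources. The deposited signal values are gene counts that the authors divided by 1 size factor per library. Whole reads were recovered by dividing by the value of 1 read (100% of values within 0.01 of a whole number, largest distance 0.00666). Of 24421 rows, 27 bore date names (0.294% to 0.363% of reads) and were left out.

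All 81 replicate pairs differed by more than counting noise (chi-square per degree of freedom 2.05 to 6.39). The 10526 genes averaging 10 or more were tested with limma 3.58.1 (mean-variance trend, R 4.3.3) on log2(value + 1), which understates the change of low genes, with all 15 groups in 1 fit, no covariate and Benjamini-Hochberg adjustment (threshold 0.05). The script was tested on simulated data. edgeR 4.0.16 (quasi-likelihood) and DESeq2 1.42.0 on recovered reads were alternatives, beside other filters, pseudocounts, scalings, covariates and libraries left out. With the terms for replicates 3 and 4 in each arm, light minus dark is read at replicates 1 and 2. A count of 0 was read as up to 3 reads, and intervals cover counting error only. Within-group correlations used 100000 permutations.

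The members, the gene lists and the rule for named genes were chosen with earlier results of these data known. The rule named the members, up to 4 genes per list with the smallest p at ZT1, and the 3 genes most like each member. Egr1 and Arc levels, Mapk14 in the day average and the genes counted in a list were named beside these after their values were seen. Markers of 14 cell types and regions were read as a tissue check. Striatal Drd2 and blood Hbb-bs and Hba-a1 were at 0.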

Additional observations from a re-analysis of the deposited data

Results flagged for a closer look

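A library far from the others of its group was looked for in 64 groups of 4 libraries with Dixon's 95% criterion, which chance meets in about 1 in 20 groups, and 6 were found. For Dusp6 they were light ZT11.5 replicate 3 (83.7, where the others held 44.6 to 49.8) and dark ZT7.5 replicate 1 (24.3, where the others held 28.9 to 29.8). Dusp4 in dark ZT15 replicate 4 held 16.4 and Dusp14 in dark ZT18 replicate 1 held 441, both above their groups. For Dusp5 the flagged values, 0.819 in dark ZT0 replicate 1 and 1.23 in dark ZT18 replicate 2, are single libraries with a read in groups otherwise at 0.

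The light minus dark difference of Dusp1 was called as varying with time (F test, limma, adjusted p 0.0306), with 1.63 at ZT1, 0.09 at ZT3 and -0.65 at ZT18. This call was lost without libraries under 2 M reads (adjusted p 0.339), without a filter (0.103) and when any 1 of 8 libraries was left out.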

How the results depend on the processing

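Dusp4 and Dusp5 rest on few reads. The 60 member values were recomputed in 15 other settings and with each of the 57 libraries left out. Of 1783 values, 1650 kept their direction and side of the threshold, 66 lost a call, 20 gained one and 47 turned sign, none of them a called difference. Results not called in the main test had no call to lose. The 66 therefore fall on the called results alone, and the 1650 do not measure how firm those calls are. The cause was not tested in any case. At ZT1, 1 member was called in the main test, against 2 by edgeR, 3 by DESeq2, 2 without libraries under 2 M reads, 3 with log2 Malat1 as a term and 1 to 2 with single libraries left out. At ZT3, where 1 was called, there were 0 without a filter, with only the groups compared, with terms for replicates 3 and 4 in each arm and with replicates 1 and 2 alone (0 to 1 with single libraries left out). With replicates 3 and 4 alone 1 was called at ZT3, but another member, Dusp3 (0.39, adjusted p 0.0253) and not Dusp14 (0.0838). In that fit 184 of 10526 genes passed, against 13 in the main test. The same replicates called 1 at ZT11.5 (Dusp1), against 0, where 230 genes passed, against 16. At ZT1 and ZT13 they leave a single dark library, and Dusp14 differed by 0.69 and 0.56 there. Dusp1 at ZT1 did not pass with these replicates. Over dark times 1 was called (Dusp3), against 0, with a minimum mean of 50, terms for replicates 3 and 4, replicates 1 and 2 alone, and log2 Ttr or log2 Malat1 as a term (0 to 1 with single libraries left out). The varying light-dark difference had 0 calls, against 1, without a filter and without libraries under 2 M reads (0 to 1 with single libraries left out). The terms with Ttr, Malat1, or Prkcd and Tnnt1 were chosen after seeing the data.

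Dusp1 at ZT1 minus ZT3 passed with replicates 1 and 2 alone (2.04, adjusted p 0.00352). Its day minus night difference passed with replicates 3 and 4 alone (0.99, adjusted p 0.0414) and without dark ZT18 replicate 2 (0.87, adjusted p 0.0375). The day average missed for Dusp3 with Prkcd and Tnnt1 as a term (0.15, adjusted p 0.0528) and for Dusp14 with replicates 1 and 2 alone (0.22, adjusted p 0.139). With replicates 3 and 4 alone Dusp1 missed at light ZT1 against dark ZT0 (adjusted p 0.0816) and at light ZT3 against ZT1 (0.0675), and Dusp14 at light ZT7.5 against ZT3 (0.211). Dusp6 over light times missed without a filter (adjusted p 0.065), with only the groups compared (0.126), with replicates 3 and 4 alone (0.353) and with Prkcd and Tnnt1 as a term (0.0515). Among uncalled light minus dark differences, signs turned with replicates 1 and 2 alone for Dusp1 at ZT3 (-0.0167) and at night (0.12), Dusp3 at ZT7.5 (-0.073), ZT18 (-0.0852) and night (-0.0614), Dusp4 at ZT7.5 (-0.0246) and ZT11.5 (-0.0163) and Dusp14 at ZT18 (-0.0737). With terms for replicates 3 and 4 they turned for Dusp3 at ZT7.5 (-0.0573) and night (-0.0383), Dusp4 at ZT7.5 (-0.17) and ZT15 (-0.0227) and Dusp14 at ZT18 (-0.0516). With replicates 3 and 4 alone they turned for Dusp14 at ZT7.5 (0.0177), Dusp4 at ZT13 (0.33), ZT18 (0.0665) and night (0.19), Dusp6 at ZT13 (-0.22), Dusp1 at ZT15 (-0.0822) and Dusp3 at ZT15 (0.12). Dusp14 at ZT7.5 turned by DESeq2 (0.00193) and with log2 Ttr (0.00859), Dusp3 at ZT15 with log2 Malat1 (0.015), and without libraries under 2 M reads Dusp14 at ZT15 (0.0173), Dusp4 at ZT18 (0.0585) and Dusp1 at night (0.24).

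With single libraries left out, signs turned within these ranges: Dusp1 -0.0564 to 0.20 at ZT3, -0.021 to 0.23 at ZT15 and -0.13 to 0.0481 at night, Dusp3 -0.0234 to 0.0743 at ZT7.5 and -0.088 to 0.0445 at ZT15, Dusp4 -0.0652 to 0.31 at ZT7.5, -0.0645 to 0.63 at ZT15 and -0.60 to 0.00424 at ZT18, and Dusp14 -0.0754 to 0.12 at ZT7.5, -0.086 to 0.0445 at ZT15 and -0.0119 to 0.13 at ZT18.

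Over the 15 other settings, genes passing ranged from 21 to 66 at ZT1 (27 in the main test), 4 to 184 at ZT3 (13), 0 to 23 at ZT7.5 (0), 5 to 230 at ZT11.5 (16), 1 to 395 at ZT13 (4) and 40 to 550 in the day average (95).

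Single replicate numbers did not pair the samples, but the pairs of numbers, 1 and 2 or 3 and 4, ran together within an arm. Deviations of same-numbered libraries correlated on average at 0.04 in dark, 0.12 in light and -0.02 between arms. For the other number of the same pair the values were 0.04, 0.10 and -0.01. For the other pair of numbers they were -0.04, -0.11 and 0.02. The main fit holds no term for this. With the replicate number as a block all 60 member values kept their direction and side of the threshold, and Dusp1 at ZT1 was 1.59. That block is shared by both arms and cannot take up a shift that differs between them. Malat1 has such a shift, with replicates 3 and 4 minus 1 and 2 averaging -1.83 (log2) in light and 0.85 in dark. With terms for replicates 3 and 4 in each arm, the day averages of Dusp3 (adjusted p 0.792) and Dusp14 (0.0829) did not pass.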

Other observations

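Relative to dark libraries at the same hour, Dusp1 was 3.2-fold higher at ZT1 and 1.08-fold at ZT3, Dusp14 was 1.4-fold higher at both times, and Dusp6 was 1.9-fold and 1.55-fold higher (ratios of group means). The difference between the light effects at ZT1 and ZT3 passed for none of the 5 tested members.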
